A study of Mus musculus with 9 samples.

Results

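The genes next to Ddt on mouse chromosome 10 were followed in livers with and without Ddt, the gene that encodes MIF-2 (D-dopachrome tautomerase). They are 10 genes of the 27179 in the count table, listed as neighbours of Ddt on either side: the theta-class glutathione S-transferase genes Gstt1, Gstt2 and Gstt3, and Derl3, Smarcb1, Chchd10, Cabin1, Gucd1, Specc1l and Upb1. Ddt itself and its paralog Mif, which lies in the same stretch, are given beside them and are not counted among the 10. Other genes of the same stretch, some of them nearer to Ddt than Gucd1, Upb1 and Specc1l, are given after them. All 10 passed the filter on low counts.

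The study sequenced liver RNA to learn how loss of MIF-2 alters the livers of mice prone to atherosclerosis. Both groups lacked Apoe, the apolipoprotein E gene whose loss raises plasma cholesterol, and both were female mice fed a cholesterol-rich high-fat diet (HFD) for 12 weeks from 8 weeks of age. The 5 control libraries, labelled WT in the count table, came from Apoe-/- mice and the 4 others, labelled DKO, from Mif-2-/- Apoe-/- mice, and the deletion of Mif-2 was global, present in every cell type. Each library pooled 3 to 4 frozen sections embedded in OCT compound, from which poly(A) RNA was amplified by Smart-seq2. The design of the Mif-2 allele and the strain it was made in are not given in the sources used here, and all 4 Mif-2-/- Apoe-/- libraries carry the deletion together with the chromosome that flanks it. Loss of Ddt and any difference in the flanking sequence therefore cannot be told apart in these data. Nothing ties each library to a separate animal, and there are more Apoe-/- libraries than mice stated for that group, so the p-values measure the spread between these libraries.

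MIF and MIF-2 are small secreted proteins of one family that act as cytokines and carry a tautomerase fold. Their genes lie in a cluster with the theta-class glutathione S-transferases, enzymes of detoxification that join glutathione to small halogenated and other reactive compounds and are abundant in liver. The genes on either side have unrelated work, in chromatin remodelling, mitochondrial structure, protein quality control and breakdown of pyrimidines. Genes that lie close together can share regulatory DNA, and a knockout allele can alter transcription of the genes beside it.

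In the RefSeq annotation of GRCm38.p6, Ddt occupies chr10:75771233-75773374 on the minus strand. Gstt3, at chr10:75774117-75781422, ends 743 bp upstream of Ddt on the same strand, and Gstt1 and Gstt2 follow at 10.4 kb and 58.5 kb. Mif lies 86.0 kb away on the same side, and beyond it come Derl3 at 120 kb, Smarcb1 at 123 kb and Chchd10 at 160 kb. On the other side, Cabin1 starts 6876 bp from the end of Ddt, and Gucd1, Upb1 and Specc1l are 253, 330 and 459 kb away. GENCODE M21 also lists Gm20441, a protein-coding transcript of the same strand at chr10:75771451-75780954 that joins exons of Gstt3 and Ddt. It shares 524 exonic bases with Gstt3 and 232 with Ddt, and it has no line in the count table.

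The promoters of Ddt, of its nearest neighbour on each side and of Chchd10 and Mif are shown because the results below turn on these genes. Each runs from 250 bases before to 50 bases after the start of transcription, from RefSeq (GRCm38.p6), written 5′ to 3′ along the gene. Capitals mark any match, on either strand, to 6 motifs: the antioxidant response element core TGACNNNGC, the GC box GGGCGG, the CCAAT box CCAAT, the TATA box TATAAA, the E-box CACGTG and the nuclear receptor half-site AGGTCA.
Ddt promoter, chr10:75773325-75773624, minus strand: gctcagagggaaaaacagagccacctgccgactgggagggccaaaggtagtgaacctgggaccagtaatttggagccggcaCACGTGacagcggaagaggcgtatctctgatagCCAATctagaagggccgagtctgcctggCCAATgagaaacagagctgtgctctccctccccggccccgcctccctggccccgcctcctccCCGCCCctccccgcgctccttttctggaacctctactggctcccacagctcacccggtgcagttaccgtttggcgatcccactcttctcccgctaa
Gstt3 promoter, chr10:75781373-75781672, minus strand: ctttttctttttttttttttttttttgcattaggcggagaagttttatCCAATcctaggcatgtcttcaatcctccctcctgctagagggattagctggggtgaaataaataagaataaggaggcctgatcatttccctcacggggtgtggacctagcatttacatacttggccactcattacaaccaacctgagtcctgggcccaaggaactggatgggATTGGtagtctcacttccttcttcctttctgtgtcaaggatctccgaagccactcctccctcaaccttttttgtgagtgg
Cabin1 promoter, chr10:75764308-75764607, minus strand: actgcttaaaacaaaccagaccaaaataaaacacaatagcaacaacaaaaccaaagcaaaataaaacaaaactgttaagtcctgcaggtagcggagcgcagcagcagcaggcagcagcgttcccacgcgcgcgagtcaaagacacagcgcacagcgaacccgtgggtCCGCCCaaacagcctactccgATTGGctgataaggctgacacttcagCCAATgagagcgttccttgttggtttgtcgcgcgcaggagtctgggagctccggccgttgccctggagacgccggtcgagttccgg
Chchd10 promoter, chr10:75932880-75933179, plus strand: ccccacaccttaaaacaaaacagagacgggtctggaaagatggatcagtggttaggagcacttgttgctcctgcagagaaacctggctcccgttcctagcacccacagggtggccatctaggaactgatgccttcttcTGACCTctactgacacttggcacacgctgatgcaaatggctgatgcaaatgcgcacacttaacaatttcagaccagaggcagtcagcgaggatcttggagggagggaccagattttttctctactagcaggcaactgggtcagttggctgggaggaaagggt
Mif promoter, chr10:75860228-75860527, minus strand: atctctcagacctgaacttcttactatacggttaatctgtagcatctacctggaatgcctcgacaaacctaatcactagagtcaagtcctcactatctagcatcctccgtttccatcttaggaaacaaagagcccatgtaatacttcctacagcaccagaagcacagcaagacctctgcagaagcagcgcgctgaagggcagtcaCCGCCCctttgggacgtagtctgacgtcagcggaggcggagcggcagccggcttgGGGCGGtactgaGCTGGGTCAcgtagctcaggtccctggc
Entries were found for 9 of the 10 genes, all but Gstt2. The Ddt promoter held 1 GC box, 2 CCAAT boxes and 1 E-box, and that of Cabin1 held 1 GC box and 2 CCAAT boxes. Gstt3 had 2 CCAAT boxes and none of the other motifs. Chchd10 had only 1 nuclear receptor half-site, and Mif had 2 GC boxes and 1 antioxidant response element core, so the promoters of this last pair had no motif in common. Of 27025 promoters of this length, 37.9% held a CCAAT box, 35.9% a GC box, 16.0% a nuclear receptor half-site, 14.2% a TATA box, 12.5% an antioxidant response element core and 7.24% an E-box. A match describes the letters of the window and says nothing of binding.

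The coding sequences of the theta-class genes show how far reads of one could be taken for another. Bases that differ from Gstt1 at the same place are in capitals in the lines of Gstt2 and Gstt3, which start at the initiation codon of the transcripts Gstt1-201, Gstt2-201 and Gstt3-201 of GENCODE M21.
Gstt1, first 60 coding bases: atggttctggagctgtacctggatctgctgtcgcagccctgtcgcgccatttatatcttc
Gstt2, first 60 coding bases: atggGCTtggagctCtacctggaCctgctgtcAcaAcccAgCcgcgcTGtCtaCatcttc
Gstt3, first 60 coding bases: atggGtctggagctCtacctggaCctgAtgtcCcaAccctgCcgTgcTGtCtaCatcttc
Over these bases Gstt2 differed from Gstt1 at 13 positions and Gstt3 at 12. Over the whole coding sequence, identity was 75.1% between Gstt1 and Gstt3, 60.4% between Gstt2 and Gstt3 and 58.9% between Gstt1 and Gstt2. The longest run of identical bases in any of their annotated transcripts was 35 between Gstt1 and Gstt3, 26 between Gstt2 and Gstt3 and 17 between Gstt1 and Gstt2, all shorter than the reads of 100 bases.

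Ddt checks the labels. Apoe-/- replicates 1 to 5 held 4304, 4806, 1815, 4820 and 1205 counts of it, against 27, 6, 21 and 11 in Mif-2-/- Apoe-/- replicates 1 to 4. Expressed as CPM, counts scaled for library size and by edgeR's TMM factors, the means were 658 ± 283 (SD, n = 5) and 4.18 ± 1.45 (SD, n = 4). On the log2 scale the fold change, Mif-2-/- Apoe-/- over Apoe-/- livers here and throughout, was -7.27 ± 0.54 (SE; edgeR quasi-likelihood test, adjusted p = 2.23e-05). Every library thus matched its genotype label at Ddt. Albumin had 93692 or more counts in each library, and all 10 hepatocyte markers had counts in all 9.

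Total counts ran from 2318148 in Mif-2-/- Apoe-/- replicate 2 to 10764182 in Apoe-/- replicate 2. The 10 most abundant genes, led by Apoa1 and Alb, took 14.7% to 23.7% of the counts in Apoe-/- libraries and 12.5% to 26.3% in Mif-2-/- Apoe-/- libraries. A library of each group stood apart in this share: Apoe-/- replicate 5 was the lowest of its group at 14.7%, and Mif-2-/- Apoe-/- replicate 2 the highest at 26.3%. Several results below move with that share, and its part in them was not tested beyond the fits that are given. Since liver is a mixture of cells, fewer cells of a type and less RNA per cell cannot be told apart.

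None of the 10 genes differed between the genotypes at an adjusted p under 0.05 in edgeR, where 22 of 16860 genes tested did, or 0.13%. DESeq2 called 2 of them, Gstt3 lower and Cabin1 higher in Mif-2-/- Apoe-/- livers, against 724 of the 14686 genes to which it gave an adjusted p, or 4.93%. At an unadjusted p under 0.05 in edgeR, 4 of the 10 passed, against 15.5% of all genes: Gstt2 and Cabin1 were higher and Gstt3 and Chchd10 lower in Mif-2-/- Apoe-/- livers. The genotypes did not overlap in 1 of the 10, Gstt3, against 4.26% of all genes. The estimates lay above 0 for 4 genes and below 0 for 6, from -1.43 for Gstt3 to 1.29 for Cabin1. Their median log2 fold change was -0.31, and that of all genes tested was 0.17 under TMM and -0.00 under TMMwsp factors, where the median of the 10 was -0.48. It was closest to 0 without Apoe-/- replicate 4, at -0.063, and was -0.16 without Mif-2-/- Apoe-/- replicate 4 and -0.14 with the share of the 10 most abundant genes as a covariate.

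**Figure D1:**
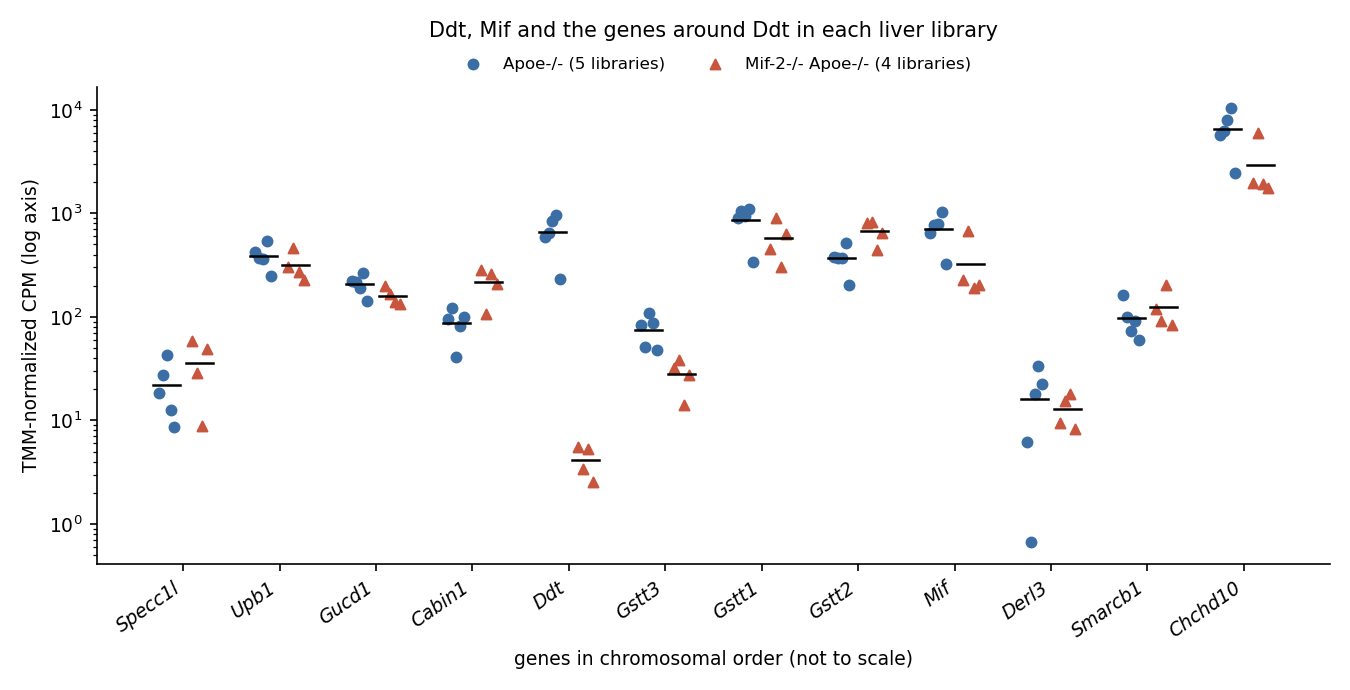
TMM-normalized CPM on a log axis of Ddt, Mif and the 10 genes around Ddt, in chromosomal order, in 5 Apoe-/- (circles) and 4 Mif-2-/- Apoe-/- libraries (triangles), with lines at the group means. Of the 10 genes, only Gstt3 has no overlap between the genotypes, and the loss of Ddt between its neighbours is the largest step.

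Among the theta-class genes, Gstt3 was lower and Gstt2 higher in Mif-2-/- Apoe-/- livers at an unadjusted p under 0.05, and the estimate for Gstt1 lay below 0 without passing it. Gstt3, the gene next to Ddt, had 83.3, 51.2, 108, 86.5 and 47.6 CPM in Apoe-/- replicates 1 to 5 against 32.3, 38.05, 14.1 and 27.2 CPM in Mif-2-/- Apoe-/- replicates 1 to 4. All 4 Mif-2-/- Apoe-/- libraries were below the lowest Apoe-/- library. The means of 75.3 ± 25.5 and 27.9 ± 10.2 CPM gave a log2 fold change of -1.43 ± 0.41 (SE; 95% interval -2.32 to -0.55; edgeR, unadjusted p = 0.00364, adjusted p = 0.156). DESeq2 gave an adjusted p of 0.0143, and the exact permutation test over the 126 arrangements of the libraries gave p = 0.0159 (two-sided), the smallest it can give. The estimate stayed at an unadjusted p under 0.05 in all 19 alternative fits, between -1.71 and -1.18. It was -1.71 without Mif-2-/- Apoe-/- replicate 2 (adjusted p = 0.0768) and -1.56 when Apoe-/- replicate 5 was left out (adjusted p = 0.0725).

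Gstt2, 58.5 kb from Ddt, encodes a theta enzyme that differs from GSTT1 in the substrates it takes. Apoe-/- replicates 1 to 5 held 380.2, 371, 367, 519 and 205 CPM of it, against 805, 817, 442 and 651 CPM in Mif-2-/- Apoe-/- replicates 1 to 4. The groups overlapped by 1 library, since Mif-2-/- Apoe-/- replicate 3 lay below Apoe-/- replicate 4. The log2 fold change was 0.88 ± 0.32 (SE; 95% interval 0.20 to 1.56; edgeR, unadjusted p = 0.0147, adjusted p = 0.216), and DESeq2 gave an adjusted p of 0.0597. Of the 19 alternative fits, 14 kept an unadjusted p under 0.05. The 5 that did not were TMMwsp factors, at 0.70, and the fits without Apoe-/- replicate 1, 2 or 3 or Mif-2-/- Apoe-/- replicate 2, the last at 0.68.

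For Gstt1, the most abundant of these enzymes per kb of exon in both genotypes, Apoe-/- replicates 1 to 5 held 910.4, 1048, 933, 1099.8 and 340.7 CPM, against 452, 899, 301 and 638 CPM in Mif-2-/- Apoe-/- replicates 1 to 4. Apoe-/- replicate 5 was far below the rest of its group and lower than 3 of the 4 Mif-2-/- Apoe-/- libraries. The log2 fold change was -0.60 ± 0.39 (SE; 95% interval -1.44 to 0.24; edgeR, adjusted p = 0.493). Without Apoe-/- replicate 5 it was -0.80, and when Mif-2-/- Apoe-/- replicate 2 was left out it was -1.0, with adjusted p = 0.176 and 0.230. Without Mif-2-/- Apoe-/- replicate 1 or 3 it was smaller, at -0.50 and -0.38, with edgeR adjusted p = 0.663 and 0.758.

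The amount of Gstt2 relative to Gstt1 and to Gstt3 separated the genotypes, while the sum of these genes did not. Summed over Gstt1, Gstt2 and Gstt3, Apoe-/- livers had 1310 ± 421 CPM (SD, n = 5) and Mif-2-/- Apoe-/- livers 1279 ± 408 CPM (SD, n = 4) (two-sided exact permutation test, p = 0.984). Within each library, the ratio of Gstt2 to Gstt1 counts needs no normalization, and Apoe-/- replicates 1 to 5 had ratios of 0.418, 0.354, 0.393, 0.472 and 0.602, against 1.78, 0.909, 1.47 and 1.02 in Mif-2-/- Apoe-/- replicates 1 to 4. The lowest ratio in Mif-2-/- Apoe-/- livers was above the highest in Apoe-/- livers, and the geometric means differed 2.83-fold. The exact permutation test gave p = 0.0159, the smallest it can give, and 0.0476 after Benjamini-Hochberg adjustment over 6 ratios, all chosen after the values were seen. The adjustment does not cover that choice. Over all other genes tested, the ratio to Gstt1 did not overlap between the genotypes for 3.24%. Among Mif-2-/- Apoe-/- replicates 1, 3, 4 and 2 the Gstt2 to Gstt1 ratio fell from 1.78 to 0.909 as the share of the 10 most abundant genes rose from 12.5% to 26.3%. The highest Apoe-/- ratio, 0.602, was in replicate 5, which had the lowest share of its group. No such order held among the other Apoe-/- libraries, and the part of the share in the ratios was not tested.

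The ratio of Gstt2 to Gstt3 took values of 4.57, 7.25, 3.4, 6.0 and 4.31 in Apoe-/- replicates 1 to 5, against 24.9, 21.5, 31.3 and 23.9 in Mif-2-/- Apoe-/- replicates 1 to 4. These ranges lay far apart and the geometric means differed 5.10-fold (exact permutation p = 0.0159, adjusted p = 0.0476). Gstt2 had been seen to be higher and Gstt3 lower before this ratio was formed. Its test therefore adds no separate evidence on either gene, and the adjustment does not cover the choice. Against Gstt3, 14.8% of all other genes tested had ratios without overlap, so a gap of this kind to Gstt3 was less rare than to Gstt1. Gstt3 relative to Gstt1 averaged 0.0949 ± 0.0348 (SD) in Apoe-/- livers against 0.0508 ± 0.0139 in Mif-2-/- Apoe-/- livers, with overlapping libraries (exact permutation p = 0.0318, adjusted p = 0.0476).

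As shares of their summed counts, Gstt1 made up 65.1 ± 5.01% (SD) of those in Apoe-/- livers against 43.6 ± 7.53% in Mif-2-/- Apoe-/- livers. Gstt2 made up 28.8 ± 3.79% and 54.2 ± 7.43%, and Gstt3 6.06 ± 1.87% and 2.15 ± 0.27%. None of these shares overlapped between the genotypes, and they follow from the ratios above. Gstt2 was thus the most counted theta gene in 3 of 4 Mif-2-/- Apoe-/- libraries, all but replicate 2, and Gstt1 in all 5 Apoe-/- libraries. Per kb of exon, Gstt1 still led in both genotypes, at 567 ± 199 and 375 ± 169 CPM per kb against 88.7 ± 26.8 and 163 ± 42.1 for Gstt2. Gstt4, a further theta gene 41.6 kb from Ddt, had 5 counts in all over the Apoe-/- libraries and 32 over the Mif-2-/- Apoe-/- libraries, too few for a comparison.

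**Figure D2:**
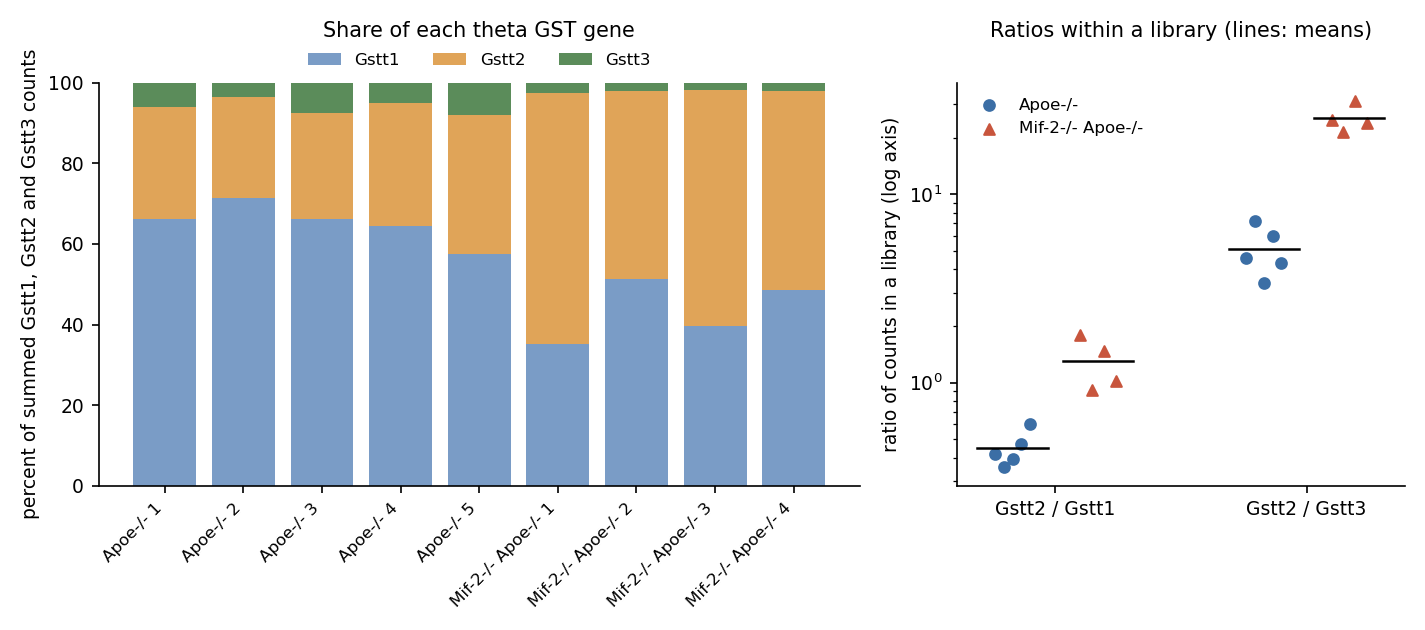
Left, percent of the summed counts of Gstt1, Gstt2 and Gstt3 that each gene holds, 1 bar per library. Right, ratios of Gstt2 to Gstt1 and of Gstt2 to Gstt3 counts within each library on a log axis, with lines at the group means: the 4 Mif-2-/- Apoe-/- libraries lie above all 5 Apoe-/- libraries in both.

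The other glutathione S-transferases, cytosolic and microsomal, carry out the same kind of conjugation on other substrates. Of 22 tested, 0 were called by edgeR at an adjusted p under 0.05 and 4 by DESeq2, Gstm4, Gstm7, Gstk1 and Mgst1, all lower in Mif-2-/- Apoe-/- livers. At an unadjusted p under 0.05, 10 were lower and 0 higher in Mif-2-/- Apoe-/- livers, with a median log2 fold change of -0.98 against 0.17 for all genes. The smallest p-values were those of Gstm4, at -1.78 ± 0.49 (SE; edgeR, adjusted p = 0.147), and of the mitochondrial and peroxisomal Gstk1, at -1.27 ± 0.36 (adjusted p = 0.154). Gstt2 thus had an estimate on the other side of 0 from the median of this family, and Gstt3 on the same side. Of the 22, 4 also had estimates above 0.

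Cabin1, the nearest gene on the other side of Ddt, encodes a protein that binds and inhibits calcineurin and is part of the HIRA histone chaperone complex. Apoe-/- replicates 1 to 5 held 96.0, 121, 40.8, 80.8 and 100.3 CPM of it, against 283, 107, 262 and 209 CPM in Mif-2-/- Apoe-/- replicates 1 to 4. Only Mif-2-/- Apoe-/- replicate 2 lay within the Apoe-/- range, and the other 3 were above it. The means of 87.8 ± 29.9 and 215 ± 78.5 CPM gave a log2 fold change of 1.29 ± 0.37 (SE; 95% interval 0.51 to 2.08; edgeR, unadjusted p = 0.00329, adjusted p = 0.154). DESeq2 gave an adjusted p of 0.0201, and the exact permutation test p = 0.0318 (two-sided). It stayed at an unadjusted p under 0.05 in all 19 alternative fits, between 0.90 with the share of the 10 most abundant genes as a covariate and 1.43 (adjusted p = 0.0592) without Mif-2-/- Apoe-/- replicate 2.

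Of 17 calcineurin and HIRA complex genes tested beside Cabin1, 0 were called by edgeR and 1, Nfatc4, by DESeq2, and 3 were higher and 0 lower at an unadjusted p under 0.05. Their median log2 fold change was 0.29. Nfatc4, a transcription factor that calcineurin activates, had the smallest p, at 2.50 ± 0.77 (SE; edgeR, adjusted p = 0.171) with means of 2.70 and 15.4 CPM. Ubn2, a HIRA complex subunit, followed at 1.14 ± 0.44 (adjusted p = 0.242).

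Farther out on the Cabin1 side, none of the 3 genes passed an unadjusted p under 0.05. Gucd1 had 142 to 265 CPM (median 216) in Apoe-/- livers against 134 to 198 CPM in Mif-2-/- Apoe-/- livers, and its log2 fold change was -0.38 ± 0.29 (SE; edgeR, adjusted p = 0.561). Upb1, which encodes the enzyme of the last step from uracil to beta-alanine, had 245 to 536 CPM in Apoe-/- livers against 228 to 466 CPM in Mif-2-/- Apoe-/- livers. The fold change on the log2 scale was -0.29 ± 0.32 (SE; edgeR, adjusted p = 0.713). Specc1l, a protein that links actin and microtubules, had the lowest level per kb of the 10. It had 8.71 to 43.2 CPM in Apoe-/- livers against 8.82 to 58.2 CPM in Mif-2-/- Apoe-/- livers, overlapping like the other two, and its log2 fold change was 0.72 ± 0.61 (SE; edgeR, adjusted p = 0.608). The 95% intervals were -0.99 to 0.24 for Gucd1, -0.96 to 0.39 for Upb1 and -0.58 to 2.01 for Specc1l. A 2-fold higher level was within the interval for Specc1l. Among 12 genes of pyrimidine and beta-alanine breakdown, edgeR called 1, Upp2, a uridine phosphorylase, which rose by 3.39 ± 0.51 (SE; log2; adjusted p = 0.0137). DESeq2 also called Upp2 alone. At an unadjusted p under 0.05, 2 were higher and 1 lower, and the median log2 fold change was -0.36, with 4 of the 12 above 0.

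Chchd10 encodes a small protein of the mitochondrial intermembrane space that helps shape the inner membrane, and it was by far the most abundant of the 10 genes per kb of exon. Apoe-/- replicates 1 to 5 held 5666, 6255, 8005, 10304 and 2429 CPM of it, against 1956, 6024, 1904 and 1769.5 CPM in Mif-2-/- Apoe-/- replicates 1 to 4. Mif-2-/- Apoe-/- replicate 2 lay inside the Apoe-/- range, while the other 3 lay below its lowest library, replicate 5. The log2 fold change was -1.17 ± 0.48 (SE; 95% interval -2.18 to -0.15; edgeR, unadjusted p = 0.0274, adjusted p = 0.266; exact permutation p = 0.0476). Without Mif-2-/- Apoe-/- replicate 2 it was -1.90 (adjusted p = 0.0542), and with Apoe-/- replicate 5 left out it was -1.37 (adjusted p = 0.0843). The estimate kept an unadjusted p under 0.05 in 15 of the 19 alternative fits. It did not without Apoe-/- replicate 4, at -1.02, or without Mif-2-/- Apoe-/- replicate 1, 3 or 4, at -1.01, -1.01 and -0.98.

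Chchd10 also followed the share of counts held by the 10 most abundant genes. Within genotype, its log2 CPM and that share had r = 0.92 over 9 libraries, and the values for Gstt1, Upb1 and Cabin1 were 0.85, 0.77 and -0.78. Gstt2 and Gstt3 had r = 0.64 and 0.65. In a fit with the share as a covariate, the log2 fold changes were -0.72 for Chchd10, 0.90 for Cabin1, -1.18 for Gstt3 and 1.10 for Gstt2, with unadjusted edgeR p-values of 0.0141, 0.0105, 0.0125 and 0.00160 and adjusted p-values of 0.285, 0.252, 0.275 and 0.156. That of Gstt1 was -0.21 (adjusted p = 0.860). Thus the estimates of Chchd10, Cabin1, Gstt3 and Gstt1 were closer to 0 with the covariate, that of Gstt1 by the largest factor of these, and that of Gstt2 was farther from it.

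**Figure D3:**
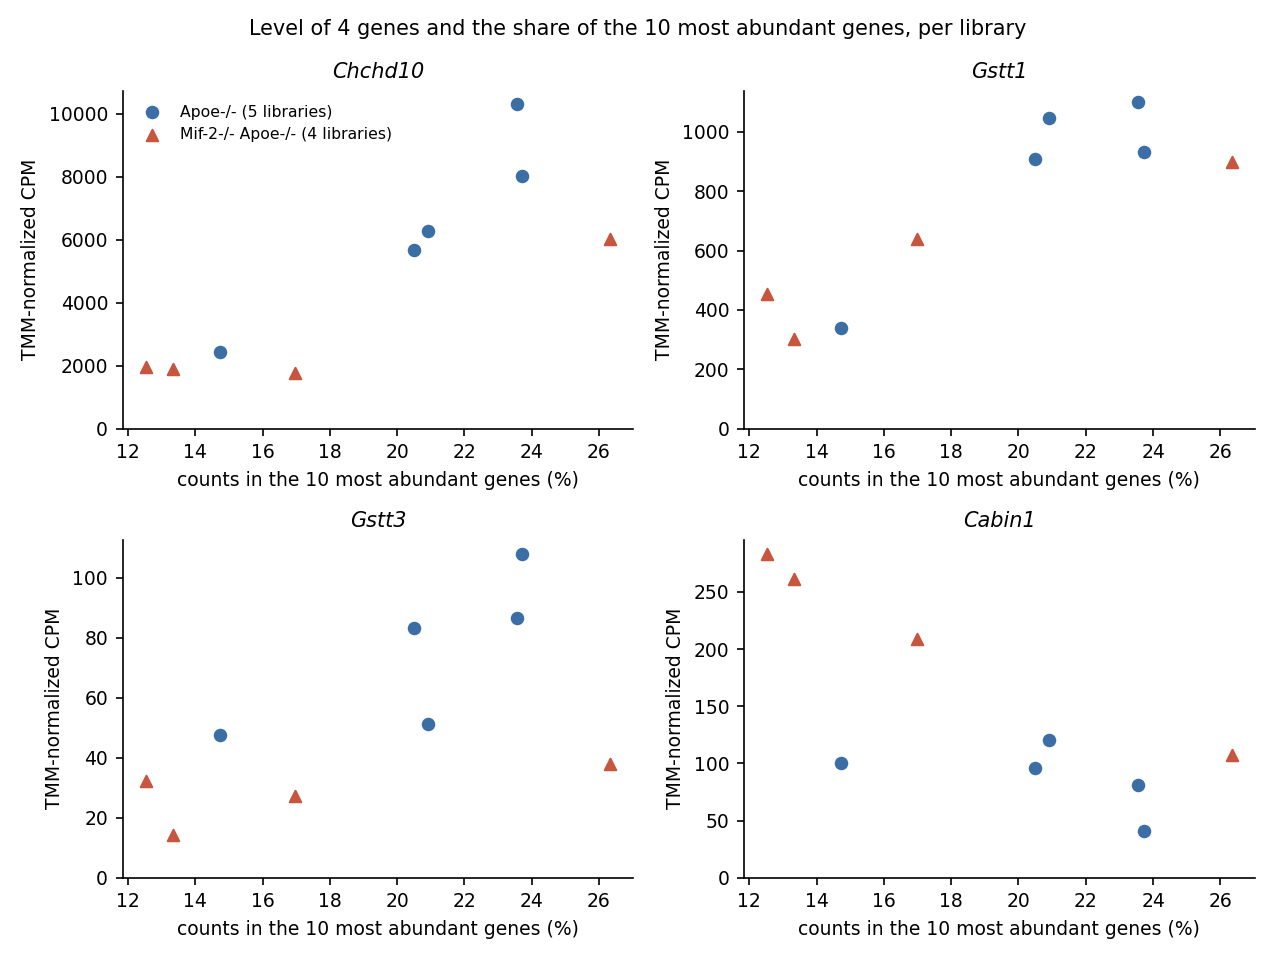
TMM-normalized CPM of Chchd10, Gstt1, Gstt3 and Cabin1 against the percent of counts in the 10 most abundant genes, 1 point per library (circles, Apoe-/-; triangles, Mif-2-/- Apoe-/-). The libraries with the lowest and highest shares, at 12.5% and 26.3%, are both Mif-2-/- Apoe-/-. The CPM of the latter lies within the Apoe-/- range for Chchd10, Gstt1 and Cabin1, and below it for Gstt3.

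Mif, which encodes the paralogous cytokine, had a ratio to Chchd10 that ran from 0.0988 to 0.133 over all libraries. This ratio was chosen after the values were seen, and how many other genes keep one as close was not counted. The ratio of Mif to Chchd10 counts took values of 0.114, 0.122, 0.0988, 0.0991 and 0.133 in Apoe-/- replicates 1 to 5, against 0.117, 0.111, 0.0992 and 0.114 in Mif-2-/- Apoe-/- replicates 1 to 4, and the latter lay within the range of the former (exact permutation p = 0.746). Mif itself averaged 709 ± 255 CPM (SD) in Apoe-/- livers against 322 ± 232 CPM in Mif-2-/- Apoe-/- livers, and its log2 fold change was -1.14 ± 0.44 (SE; edgeR, adjusted p = 0.242). Without Mif-2-/- Apoe-/- replicate 2 it was -1.88, which edgeR called (adjusted p = 0.0389). Without Mif-2-/- Apoe-/- replicate 1, 3 or 4 it was -1.005, -0.954 and -0.969. The unadjusted edgeR p-values of these fits were 0.0607, 0.0604 and 0.0657, none under 0.05. With each Apoe-/- library left out in turn, the unadjusted p stayed under 0.05. The r of Mif with the share of the 10 most abundant genes was 0.94 within genotype. Mif-2-/- Apoe-/- replicate 2 again stood apart, at 668 CPM of Mif against 228, 189 and 202 CPM in replicates 1, 3 and 4.

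Of 17 other CHCHD and MICOS genes, which build and organise the inner mitochondrial membrane, 0 were called by edgeR and 2, Chchd5 and Samm50, by DESeq2, and 7 were lower and 0 higher at an unadjusted p under 0.05, with a median log2 fold change of -0.98. Chchd5 was at -1.76 ± 0.53 (SE; edgeR, adjusted p = 0.167) and Samm50, an outer membrane assembly protein, at -0.98 ± 0.30 (adjusted p = 0.172). The estimate for Chchd10 lay close to this median.

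Smarcb1, a core subunit of the BAF chromatin remodelling complex, had 60.2 to 163 CPM (median 91.1) in Apoe-/- livers against 82.5 to 204 CPM in Mif-2-/- Apoe-/- livers, and the groups overlapped. Its log2 fold change was 0.35 ± 0.37 (SE; 95% interval -0.46 to 1.15; edgeR, adjusted p = 0.708), and it rested on Mif-2-/- Apoe-/- replicate 3, without which it was -0.000297. Of 24 BAF genes, 0 were called by edgeR and 0 by DESeq2, 1 was higher and 0 lower at an unadjusted p under 0.05, and their median was 0.22. Brd9 was at 1.03 ± 0.45 (SE; adjusted p = 0.294) and Smarce1 at -0.73 ± 0.36 (adjusted p = 0.347).

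Derl3, a derlin that helps move misfolded proteins out of the endoplasmic reticulum, was the most variable of the 10 among Apoe-/- livers, with a coefficient of variation of 80.8%, though at 37.2% not among Mif-2-/- Apoe-/- livers. Apoe-/- replicates 1 to 5 held 45, 5, 38, 165 and 116 counts of it, against 46, 27, 72 and 36 counts in Mif-2-/- Apoe-/- replicates 1 to 4, and the latter lay within the range of the former. The log2 fold change of -0.33 ± 0.83 (SE; 95% interval -2.11 to 1.44; edgeR, adjusted p = 0.888) had a 2-fold difference in either direction within its interval. Without Apoe-/- replicate 4 it was 0.09. Of 20 genes of ER-associated degradation, 0 were called by edgeR and 3 by DESeq2, Ube2g2 and Selenos among them, 1 was higher and 4 were lower at an unadjusted p under 0.05. The ubiquitin-conjugating enzyme Ube2g2 was at -1.69 ± 0.43 (SE; adjusted p = 0.137) without overlap between the genotypes.

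By position, the share of genes at an unadjusted p under 0.05 was highest next to Ddt. It was 4 of 6 genes tested within 0.1 Mb, 6 of 18 within 0.25 Mb, 7 of 28 within 0.5 Mb and 8 of 43 within 1 Mb, that is 66.7%, 33.3%, 25.0% and 18.6%. It was 22.8% of 57 genes within 2 Mb, 18.8% of 149 within 5 Mb and 16.7% of 245 within 10 Mb, so it did not fall at every step. On chromosome 10 beyond 10 Mb it was 15.1% of 551, against 15.5% of all genes tested. These counts leave out Ddt and hold 7 of the 10 genes within 0.25 Mb, so they add no separate evidence on them. Both directions were present at each distance, with 2 higher and 2 lower within 0.1 Mb and 4 higher and 4 lower within 1 Mb. In these windows and on the rest of chromosome 10, edgeR called no gene apart from Ddt. DESeq2 called 4 of the 43 genes within 1 Mb, with Cabin1, Mmp11 and Mcm3ap higher and Gstt3 lower in Mif-2-/- Apoe-/- livers. It called 21 of the 245 within 10 Mb and 20 of the 551 beyond it, against 710 of the 16860 genes tested in edgeR. The genotypes did not overlap in 6.94% of the genes within 10 Mb and in 2.54% beyond it, against 4.26% of all genes.

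Beside Mif, 10 further genes within 0.25 Mb were tested: Gstt4, Susd2, Mmp11, Ggt5, Gm867, Vpreb3, Gm5134, Ggt1, Lrrc75b and Snrpd3. Their mean levels in Apoe-/- livers ran from 0 to 14.8 CPM, so most were measured on few reads. Of these, Mmp11, a matrix metalloproteinase that lies beside Chchd10, passed an unadjusted p under 0.05 (0.00286, adjusted p = 0.148), with 0 counts in every Apoe-/- library and 34 in all over the Mif-2-/- Apoe-/- libraries. GENCODE M21 has 155 exonic bases of Chchd10 in common with Mmp11 on the opposite strand. Gm19688 was listed but not tested. Between 0.25 and 1 Mb, 2 genes that are not among the 10 passed: Slc5a4b, with 39 counts in all over the Apoe-/- libraries and 0 in the others, and Mcm3ap, a nuclear export factor, with 51.0 ± 20.9 and 143 ± 75.1 CPM and a log2 fold change of 1.49 ± 0.43 (SE; edgeR, adjusted p = 0.159). The Slc5a4b counts came almost wholly from Apoe-/- replicate 5, at 7.16 CPM against 0.469 CPM or less in the other 4 Apoe-/- libraries, and Mmp11 was highest in Mif-2-/- Apoe-/- replicate 2, at 10.8 CPM against 2.64, 0.252 and 0.229 CPM in the other 3.

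**Figure D4:**
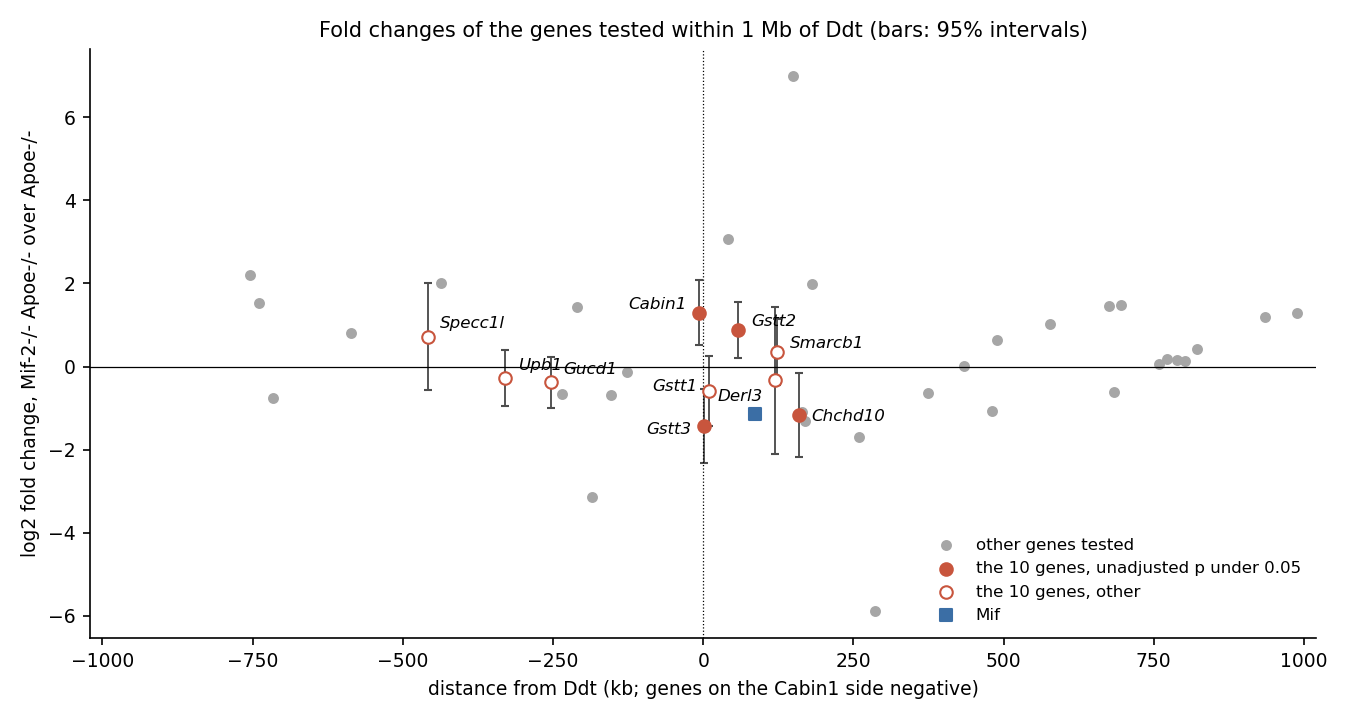
Log2 fold change, Mif-2-/- Apoe-/- over Apoe-/- livers, of the genes tested within 1 Mb of Ddt against distance from Ddt, with 95% intervals for the 10 genes. Filled red points, those of the 10 genes at an unadjusted p under 0.05, lie on both sides of 0, from -1.43 for Gstt3 to 1.29 for Cabin1. Grey points are other genes whether or not they passed, and the outermost are Mmp11 at 7.0 and Slc5a4b at -5.89, both on few counts.

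The genes whose log2 CPM ran most alike those of Cabin1, Gstt3 and Gstt2 over the 9 libraries, among 8152 genes of at least 10 CPM, mostly lay on other chromosomes. For Cabin1 they were Tle2, a corepressor gene on chromosome 10, at r = 0.98, and Fdxr and Clmn, both at 0.96. Gstt3 was most alike the translation initiation factor gene Eif3d at 0.99, Ift22 at 0.98 and Tuba4a at 0.97. For Gstt2 they were Fam102a at 0.98 and Ces1d at 0.94. The 9 libraries differ in depth and genotype, which all these genes have in common, and these are descriptions of likeness only.

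Summed markers of each liver cell type had ranges that overlapped between the genotypes. The 8 Kupffer cell and macrophage markers ran from 1005 to 1456 CPM before TMM scaling in Apoe-/- livers and from 1136 to 1409 CPM in Mif-2-/- Apoe-/- livers. The ranges for the 6 endothelial markers were 125 to 257 and 102 to 362 CPM, for the 6 stellate cell markers 136 to 353 and 203 to 402.5 CPM, and for the 5 cholangiocyte markers 89.9 to 213 and 58.2 to 309.6 CPM. The 7 plasma and B cell markers ran from 114 to 208 and from 109 to 194 CPM, with Jchain at 0 in 6 of the 9 libraries, and the 5 T cell markers from 3.26 to 16.2 and from 2.60 to 23.3 CPM. The 10 hepatocyte markers ran from 63640 to 121500 and from 67600 to 149800 CPM. Single markers did differ by some tests. None was called by edgeR, and 5 were by DESeq2: Pck1 and Mzb1 were higher and Cyp3a11, Cd5l and Cd3d lower in Mif-2-/- Apoe-/- livers. Of the 7 hepatocyte markers tested, 2 were higher and 2 lower at an unadjusted p under 0.05 in edgeR. The plasma cell gene Mzb1 averaged 0.626 CPM in Apoe-/- livers against 14.2 CPM in Mif-2-/- Apoe-/- livers, and the Kupffer cell gene Cd5l 470 against 205 CPM. The rest of their lists did not follow them. Of 6 plasma and B cell markers tested, 3 had estimates above 0, with a median log2 fold change of 0.16. Of 8 Kupffer cell and macrophage markers, 3 lay above 0, with a median of -0.11. The part of these markers in the values of the 10 genes was not tested.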

How the data were processed

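Bulk RNA-seq of liver from 5 Apoe-/- and 4 Mif-2-/- Apoe-/- mouse libraries was used. The authors ran FastQC on paired reads of 100 bases, removed adapters with cutadapt, used HISAT2 for alignment (their processing notes name mm10) and deposited whole-number counts of reads on exons per Entrez gene, without normalization. The counting tool, its version and strand setting are not given in the sources used here. 1 line without an identifier was left out, and 25275 of 27179 identifiers had a symbol.

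A gene needed 1 count or more in 3 or more libraries of one genotype, and the 10 of highest mean CPM were left out, leaving 16860 for edgeR 4.0.16 (quasi-likelihood, TMM, Benjamini-Hochberg over all genes; R 4.3.3). The SE is the log2 fold change over the square root of F. Exact permutation tests (SciPy, two-sided as 2 times the smaller tail, 126 arrangements) used log2(CPM + 0.5), or log2 ratios. DESeq2 1.42.0 was the main alternative; it gave no adjusted p for 8446 genes. The tests were tested on simulated data. Depth was 2318148 to 10764182 counts per library, a floor of 3 counts being 0.279 to 1.29 CPM (counting error only).

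The genes and lists were chosen with earlier results of these data known, and the ratios after the values were seen. Genes named are the 10, Ddt, Mif, genes within 0.25 Mb of Ddt, those within 1 Mb at an unadjusted p under 0.05, the 3 genes most alike the 3 with the smallest p, and from each list those called or else the 2 with the smallest p; Gstm7, Mgst1, Selenos and the cell type markers were added after their values were seen, and 2 genes that the rule chose are not reported here. CPM per kb uses exons of GENCODE M21 within the RefSeq gene. Nothing says that replicate numbers mark shared animals.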

Additional observations from a re-analysis of the deposited data

Results flagged for a closer look

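Dixon's test for a sample far from the rest, at the 95% level, was applied to each of the 10 genes in each genotype, 20 groups in all, of which chance marks about 1 in 20. It marked 2. Gstt1 in Apoe-/- replicate 5 stood at 340.7 CPM, with the nearest Apoe-/- library at 910.4 CPM. Chchd10 in Mif-2-/- Apoe-/- replicate 2 stood at 6024 CPM, with the nearest library of its group at 1956 CPM. These are the libraries with the lowest share of counts in the 10 most abundant genes among the Apoe-/- libraries (14.7%) and the highest of all (26.3%). The part of that share in these values was not tested beyond the fit with it as a covariate.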

How the results depend on the processing

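The number of the 10 genes called was 0 in edgeR under other size factors, filters, thinned counts, the covariate, each library left out and an adjusted p under 0.1, and 2 in DESeq2. The number called among all genes was 22, and 724 in DESeq2, 35 with the share of the 10 most abundant genes as covariate and 43 at an adjusted p under 0.1. Leaving out 1 library gave 9 to 262, the highest without Mif-2-/- Apoe-/- replicate 2, and 126 when Apoe-/- replicate 5 was left out. Over 19 alternatives, 8 of the 10 genes kept the sign of their estimate. Smarcb1 reversed to -0.000297 in 1, without Mif-2-/- Apoe-/- replicate 3, and Derl3 in 2, to 0.091 without Apoe-/- replicate 4 and to 0.528 with the replicate block. Leaving out 1 library put Smarcb1 between -0.000297 and 0.528 and Derl3 between -0.718 and 0.091; the cause was not tested. The low depth of Mif-2-/- Apoe-/- replicate 2 limits genes of few counts.

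Deviations from the group mean of libraries with the same replicate number correlated at 0.05, -0.06, 0.15 and -0.01, so the numbers were not taken to pair the libraries. With the replicate block, and Apoe-/- replicate 5 left out, 505 genes were called, 1 of them among the 10: Chchd10, at -1.57 (adjusted p = 0.0349). Mif was called too, at -1.53 (adjusted p = 0.0347), and the median of the 10 was -0.14.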
